A study of Homo sapiens with 28 samples.

Results

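The cytosolic ribosomal protein genes encode the protein parts of the ribosome that translates nuclear-encoded mRNA. They were taken here by symbol: rows named RPL or RPS with a number, with or without the endings A, X, L or AL, plus RPLP0, RPLP1, RPLP2, RPSA, RPL22L1, RPL7L1 and RPL26L1, with a mean of at least 1 CPM (reads scaled by library size) over the 28 libraries. Of 61815 human gene rows, 85 matched the names and 83 also passed the level, of which 46 code for large subunit proteins, 31 for small subunit proteins and 6 for paralogs (RPL22L1, RPL36AL, RPS27L, RPL7L1, RPL26L1 and RPL10L). RPL39L (0.00829 CPM) and RPL3L (0.0468 CPM) fell below the level and RPL10L (1.06 CPM) passed it narrowly, while the next member, RPL26L1, had 54.0 CPM. All 83 members were tested in every fit. The ribosome-bound RACK1 carries another name and is not a member.

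A ribosome holds 1 copy of most of these proteins, and the genes are transcribed at high levels. Their transcripts typically start with a C followed by an unbroken run of C and T, the 5′ terminal oligopyrimidine (TOP) motif, through which the kinase mTOR and the RNA-binding protein LARP1 set both the translation and the stability of the mRNA. Paralogs such as RPL22L1 can take the place of their partner in the ribosome.

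Total RNA was sequenced from LNCaP, a human prostate cancer line that responds to androgen, kept in charcoal-stripped (androgen-depleted) serum for 72 h before treatment. In the 24 h experiment, cells received vehicle (0.1% DMSO), the CDK8/CDK19 (Mediator kinase) inhibitor Senexin B at 1 µM, the synthetic androgen R1881 at 0.1 nM, or R1881 with Senexin B, with 3 libraries a group. In the 72 h experiment, cells received vehicle (0.1% DMSO), the CDK8/CDK19 inhibitor SNX631 at 500 nM, R1881 at 1 nM, or R1881 with SNX631, with 4 libraries a group. The Senexin B dose is as the labels give it, and the text of the study gives another. The experiments differ in time, androgen dose and inhibitor at once, which therefore cannot be told apart. All groups are the same wild-type line in androgen-depleted serum, and the replicates are described as biological.

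Total counts ran from 9846595 to 33809419 a library, the largest being the third vehicle library at 24 h and the next 15248512. The androgen target KLK3 rose by 6.15 ± 0.08 (log2 fold change ± SE) with R1881 at 24 h and by 6.57 ± 0.09 at 72 h. KRT8, KRT18, EPCAM, HOXB13 and FOLH1 were at 159 CPM or more in every library, while the androgen targets TMPRSS2 and KLK3 ranged from 14.3 to 269.6 CPM and from 0.70 to 148 CPM. Of 13 markers of basal, neuroendocrine, immune, endothelial and fibroblast cells, 10 held at most 5 counts in any library, and the others were COL1A1 (7.36 to 31.4 CPM), VWF (at most 4.56 CPM) and SYP (at most 1.16 CPM).

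The start sites of 15 members are shown because they let the TOP motif of core members be compared with that of their paralogs. The windows cover 15 bases before and 15 bases from the annotated start, 5′ to 3′, from RefSeq on GRCh38.p14, and capitals mark the unbroken run of C and T that begins with a C at the start base and is at least 5 bases long.
RPL12 (chr9:127451392-127451421, minus strand): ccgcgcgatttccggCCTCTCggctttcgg
RPL14 (chr3:40457324-40457353, plus strand): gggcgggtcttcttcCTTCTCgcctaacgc
RPLP0 (chr12:120201097-120201126, minus strand): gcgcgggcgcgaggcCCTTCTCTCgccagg
RPS6 (chr9:19380222-19380251, minus strand): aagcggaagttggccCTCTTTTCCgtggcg
RPL3 (chr22:39319609-39319638, minus strand): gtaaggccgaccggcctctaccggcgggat
RPL22 (chr1:6199581-6199610, minus strand): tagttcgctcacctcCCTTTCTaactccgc
RPL22L1 (chr3:170870181-170870210, minus strand): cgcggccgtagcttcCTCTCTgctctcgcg
RPL36A (chrX:101390996-101391025, plus strand): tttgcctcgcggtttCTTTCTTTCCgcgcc
RPL36AL (chr14:49620612-49620641, minus strand): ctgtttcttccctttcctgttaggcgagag
RPS27 (chr1:153990747-153990776, plus strand): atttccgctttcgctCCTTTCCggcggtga
RPS27L (chr15:63157463-63157492, minus strand): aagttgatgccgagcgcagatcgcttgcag
RPL26 (chr17:8383179-8383208, minus strand): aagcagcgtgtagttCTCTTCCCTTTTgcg
RPL26L1 (chr5:172958714-172958743, plus strand, 1 of 2 listed starts): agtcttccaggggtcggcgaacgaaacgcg
RPL7L1 (chr6:42879601-42879630, plus strand): cggaagtgcggcgccgtagctaggagcgga
RPL10L (chr14:46651767-46651796, minus strand): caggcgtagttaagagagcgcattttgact

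Of the 83 members, 68 have an entry in the RefSeq promoter table. A run of a C and at least 4 further C or T at a listed start was present in 47 of these 68 (69.1%), against 5.14% of all 27305 genes in the table. Among core members it was present in 46 of 62 and among paralogs in 1 of 6, RPL22L1. Allowing the run to begin within 5 bases on either side of the start, also inside a longer stretch of C and T, raised this to 55 of 68. It also raised the share of all genes to 25.2%. The letters CCGGAAG, read on both strands over 250 bases before and 50 bases after the start, were found in 24 of 68 members (35.3%) and 12.2% of all genes. GCCATNTT on both strands was found in 11 members (16.2%) and 7.97% of all genes, and TATAAA on the gene's strand in 4 members (5.88%) and 8.99% of all genes. These are matches of letters and not measured sites.

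The members took 7.59% to 10.5% of all counts in a library. At 24 h they held 9.05%, 9.55% and 9.22% of the counts in the vehicle libraries, 10.0%, 10.5% and 10.3% with Senexin B, 8.49%, 9.08% and 8.50% with R1881, and 9.28%, 9.28% and 9.11% with both. All 3 Senexin B libraries lay above all others of that experiment. At 72 h they held 8.27%, 8.44%, 8.39% and 8.30% with vehicle, 8.51%, 8.87%, 8.59% and 8.50% with SNX631, 7.96%, 7.59%, 7.71% and 7.78% with R1881, and 8.17%, 8.18%, 8.18% and 8.38% with both. All 4 SNX631 libraries lay above the vehicle libraries, and all 4 R1881 libraries lay below every other group. A share of counts also moves with the counts of all other genes, so the comparisons below use TMM scaling, which takes most genes as unchanged. At the FDR limit of 0.01 used below, 27.6% of all genes rose and 24.6% fell with R1881 at 72 h. Under SNX631, R1881 raised 29.8% and lowered 27.5%, so most genes tested changed in these 72 h contrasts. In bulk RNA, fewer cells and less RNA per cell cannot be told apart.

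**Figure D1:**
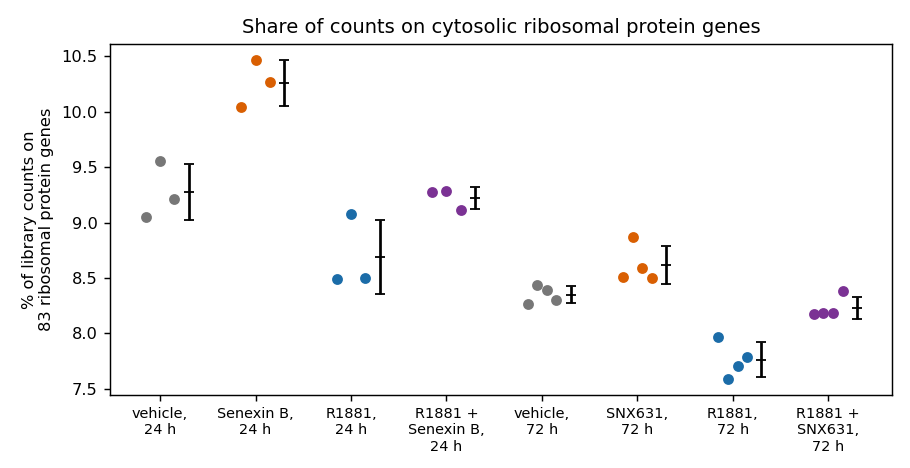
Percent of library counts on the 83 cytosolic ribosomal protein genes (vertical axis, which does not start at 0) in the 8 treatment groups (horizontal axis). Each point is a library and the black mark is the mean ± SD of 3 libraries at 24 h or 4 at 72 h, from 7.76 ± 0.157% with R1881 at 72 h to 10.3 ± 0.210% with Senexin B at 24 h.

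Senexin B in the absence of androgen raised nearly the whole family by a small and even amount. At an FDR under 0.01 in edgeR's quasi-likelihood test, 73 of 83 members rose, 45 of 46 in the large subunit and 28 of 31 in the small subunit, against 13.5% of the 15948 genes tested. The median log2 fold change was 0.18 (quartiles 0.15 and 0.20), where all genes had a median of 0.00 and quartiles of -0.15 and 0.16. None fell, none at an unadjusted p under 0.05 either and none in DESeq2, against 11.7% of all genes. No member passed the fold limit of 1.5 as well (also none at an unadjusted p under 0.05 or in DESeq2), against 3.79% of all genes. The 10 members that did not pass were all 6 paralogs, RPL10, RPS9, RPS15 and RPS26. The median level was 980 CPM in the large and 889 CPM in the small subunit class (TMM-scaled), against 22.9 CPM for all genes tested at 24 h. Small changes pass an FDR limit more readily at high counts, and the shares of all genes given here are not matched for level.

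RPL14 and RPL12, both of the large subunit and the latter at the base of its stalk, had the highest mean inhibitor effects (0.21 and 0.20). RPL14 was at 977, 1059 and 1032 CPM (TMM-scaled, as are all CPM that follow) in vehicle and at 1214, 1260 and 1250 CPM with Senexin B. The groups did not overlap, and the log2 fold change was 0.28 ± 0.03 (FDR = 5.87e-08). RPL12 was at 1306, 1395 and 1318 CPM in vehicle and at 1586, 1647 and 1635 CPM with Senexin B, again without overlap (0.28 ± 0.03, FDR = 5.22e-08). RPLP0, the base of the stalk that recruits elongation factors, went from 2980, 3054 and 2954 CPM to 3456, 3567 and 3512 CPM (0.23 ± 0.03, FDR = 9.08e-07). Its partners RPLP1 (0.21 ± 0.04) and RPLP2 (0.20 ± 0.04) rose by like amounts.

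Other members with known roles rose as well. RPS6, the protein phosphorylated by the S6 kinases downstream of mTOR, rose by 0.21 ± 0.03. RPSA, a small subunit protein also known as the laminin receptor, rose by 0.23 ± 0.03. RPL5 and RPL11, which together bind the p53 regulator MDM2 when they are free of the ribosome, rose by 0.15 ± 0.03 and 0.17 ± 0.03. RPL3, RPL13A and RPL7A, the members with the highest mean CPM (not corrected for length), rose by 0.18 ± 0.03, 0.23 ± 0.03 and 0.20 ± 0.03.

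With R1881 present, 37 of 83 members rose with Senexin B, against 12.7% of all genes. The median was 0.11 beside 0.01 for all genes, and lay within their quartiles of -0.15 and 0.17. None fell (none at an unadjusted p under 0.05 and none in DESeq2), against 9.99% of all genes, and none passed the fold limit in either test, against 3.12%. RPL14 was at 1012, 1085 and 1012 CPM with R1881 and at 1194, 1207 and 1159 CPM with both (0.20 ± 0.03, FDR = 2.65e-05). RPLP0 was at 3018, 3293 and 2988 CPM with R1881 and at 3421, 3422 and 3349 CPM with both (0.13 ± 0.03, FDR = 0.0015). Replicate 2 of the R1881 group held more ribosomal protein counts than the other 2 libraries, and the number of members that rose was 58 without it and 14 without replicate 1.

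At 72 h SNX631 raised 39 members in the absence of androgen and 67 in its presence, and the difference itself is tested by the interaction below. Without R1881, 39 of 83 rose, against 14.4% of the 16074 genes tested. The median was 0.08 beside 0.00 for all genes, and lay within their quartiles of -0.14 and 0.14. RPL10 alone fell, against 12.5% of all genes. No member passed the fold limit (none at an unadjusted p under 0.05 and none in DESeq2), against 4.77%. RPL14 was at 901, 940, 939 and 932 CPM in vehicle and at 1039, 1074, 1024 and 1014 CPM with SNX631, without overlap (0.16 ± 0.02, FDR = 2.72e-07). RPL12 was at 1162, 1191, 1179 and 1135 CPM in vehicle and at 1257, 1288, 1251 and 1245 CPM with SNX631, also without overlap (0.11 ± 0.02, FDR = 4.93e-05). Replicate 2 of the SNX631 group was the highest of its group in ribosomal protein counts, and without it 25 members rose.

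With R1881 present, 67 of 83 members rose with SNX631, against 17.8% of all genes. The median was 0.12 beside -0.01 for all genes, and lay within their quartiles of -0.17 and 0.15. RPL10 again was the member that fell, against 15.4% of all genes, and none passed the fold limit (none at an unadjusted p under 0.05 or in DESeq2), against 4.12%. RPL12 was at 1155, 1067, 1087 and 1094 CPM with R1881 and at 1269, 1284, 1286 and 1275 CPM with both, without overlap (0.22 ± 0.02, FDR = 7.48e-11). RPL17 (0.22 ± 0.02), RPL26 (0.23 ± 0.03) and RPL4 (0.18 ± 0.02), which line or surround the exit tunnel of the large subunit, rose too. RPS6 was at 2225, 2154, 2145 and 2188 CPM with R1881 and at 2371, 2376, 2360 and 2421 CPM with both (0.13 ± 0.02, FDR = 1.34e-07).

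**Figure D2:**
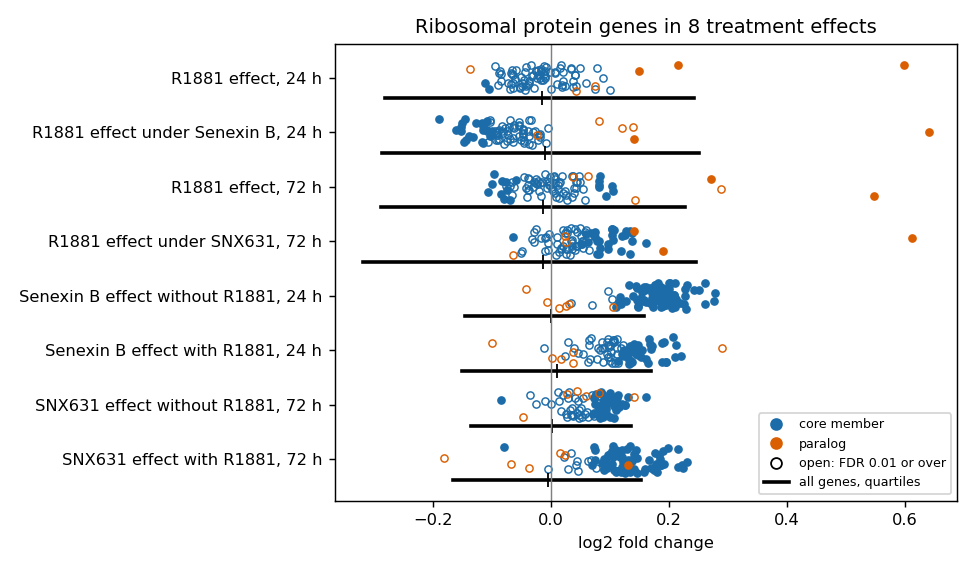
Log2 fold change (horizontal axis) of each of the 83 members in the 8 treatment effects (rows). Blue points are core members, orange points paralogs, filled points passed an FDR of 0.01, and the black bar under each row spans the quartiles of all genes with a tick at their median. Most members lie to the right of 0 in the 4 inhibitor rows, with medians of 0.08 to 0.18, and around 0 under TMM scaling in the R1881 rows (lower with library totals only), where RPL22L1 is the point at 0.55 to 0.64.

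Across the inhibitor contrasts, 26 members rose in all 4, 22 in 3, 20 in 2 and 6 in 1, and 9 rose in none. Of the 15681 genes tested in both experiments, 5.08% rose in all 4 and 72.9% in none. The contrasts within an experiment share libraries, so these counts are not independent. The 26 include the whole stalk (RPLP0, RPLP1, RPLP2 and RPL12), RPS6, RPL3, RPL4, RPL13A, RPL17 and RPL26. Within them the lowest mean effects belonged to RPL30, RPS12, RPL3 and RPS23, and those in the SNX631 contrast without R1881 were 0.08 ± 0.02, 0.07 ± 0.02, 0.08 ± 0.02 and 0.09 ± 0.02. The 9 that rose in none were RPL10, RPS9, RPS15, RPS26 and the paralogs RPL10L, RPL22L1, RPL26L1, RPL36AL and RPS27L. Senexin B and SNX631 were given at different doses and for different times, so their effects are set side by side and not compared.

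Within the core genes, the responses are given with and without the start motif. With Senexin B in the absence of R1881, 44 of 46 core members with the C and T run at the start rose (median 0.19), as did 14 of 16 without it (median 0.18). With SNX631 in the presence of R1881 the numbers were 39 of 46 (median 0.12) and 13 of 16 (median 0.13). Allowing the run to begin within 5 bases of the start, 53 of 62 core members have it, so the 16 include genes with a run nearby. RPL3 and RPL4 rose in all 4 inhibitor contrasts. Their annotated start lacks a run of that length, but such a run begins within 5 bases of it. RPL22L1, which has such a run at the start, rose in none. These are counts over genes whose transcripts were not mapped to a start here.

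R1881 by itself changed few core members, and the direction of the family depended on the scaling. At 24 h, 3 members rose, all of them paralogs (RPL22L1, RPL7L1 and RPS27L), against 26.3% of all genes, and 2 fell (RPL10 and RPS9), against 22.1%. The median of the members was -0.02, equal to that of all genes at that precision. RPL22L1 alone passed the fold limit, against 19% of all genes. At 72 h, 9 rose, against 27.6% of all genes, and 10 fell, against 24.6%. None passed the fold limit (none at an unadjusted p under 0.05 or in DESeq2), against 19.8%.

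The members that rose at 72 h were RPL22L1, RPL36AL, RPL27, RPL32, RPL38, RPL8, RPS14, RPS15 and RPS16, by 0.08 to 0.11 among the core genes, and those that fell were RPL10, RPL10A, RPL12, RPL15, RPL17, RPL28, RPL5, RPL9, RPS27 and RPS6. RPS6 was at 2249, 2296, 2279 and 2254 CPM in vehicle and at 2225, 2154, 2145 and 2188 CPM with R1881, all below vehicle (-0.06 ± 0.02, FDR = 0.00372). RPL17 was at 556, 565, 570 and 545 CPM in vehicle and at 545, 510, 505 and 517 CPM with R1881 (-0.11 ± 0.02, FDR = 0.000236). Scaled to library totals in place of TMM, 42 members fell and 1 rose at 24 h and 58 fell and 2 rose at 72 h, while the median of all genes also moved to -0.09 and -0.12. At 24 h, 9 members fell without replicate 2 of the R1881 group and none without replicate 1 of the vehicle group.

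R1881 was also compared in the presence of each inhibitor, and the 2 experiments were not tested against each other. Under Senexin B, 21 members fell, against 21.2% of all genes, and 2 rose (RPL22L1 and RPL7L1), against 26.3%, with a median of -0.07. RPL10A (-0.19 ± 0.03), RPL12 (-0.15 ± 0.03), RPS12 (-0.15 ± 0.04) and RPS27 (-0.15 ± 0.04) were among those that fell. This count was 8 without replicate 3 of the combined group and 37 without replicate 2 of the R1881 group, and was 50 with a filter of at least 5 CPM. Under SNX631, 30 members rose, against 29.8% of all genes, and RPL10 fell, against 27.5%, with a median of 0.04. RPS28 (0.16 ± 0.02), RPL32 (0.14 ± 0.02), RPL26 (0.13 ± 0.02) and RPLP2 (0.13 ± 0.02) were among those that rose. With library totals only, 72 fell under Senexin B, and 37 fell and 1 rose under SNX631. Of all genes, 4520 of 15948 and 6067 of 16074 were then lower, with medians of -0.09 and -0.12. The members had medians of -0.15 and -0.064. The sign of the members' median at 72 h thus turned with the scaling, but that median lay above the median of all genes under both scalings. With the 5 CPM filter, 14 rose and 7 fell under SNX631. The 21 that fell at 24 h and the 30 that rose at 72 h lie near the shares of all genes. With replicate number as a block, or with only the groups compared, 35 fell under Senexin B. RPL22L1 was the member past the fold limit in both contrasts, against 18.9% of all genes under Senexin B and 22% under SNX631.

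The interaction asks whether the R1881 effect changes when the inhibitor is present. At 24 h no member passed in either direction, against 1.08% higher and 1.02% lower among all genes, and none passed the fold limit, against 0.577%. DESeq2 also gave none, while 13 members were lower and none higher at an unadjusted p under 0.05, and the median was -0.06. At 72 h the interaction was positive for RPL26 (0.14 ± 0.04, FDR = 0.00659), RPL28 (0.13 ± 0.03, FDR = 0.00249) and RPS18 (0.14 ± 0.04, FDR = 0.00821), against 2.99% of all genes. These 3 of 83 members (3.61%) lie near that share. None was negative in edgeR or DESeq2, against 4.1%, and none passed the fold limit in either tool or at an unadjusted p under 0.05, against 1.19%. At an unadjusted p under 0.05, 28 members were positive and 2 negative. The median of the members was 0.05 beside -0.01 for all genes. Of the 83 members, 70 lay above 0, as did 7789 of all 16074 genes. RPL28 was at 757, 790, 756 and 755 CPM with vehicle, 749, 775, 751 and 730 CPM with SNX631, as well as 747, 703, 728 and 724 CPM with R1881, and 770, 795, 787 and 778 CPM with both. The R1881 libraries of RPL28 thus lay below those of both without overlap, while vehicle and SNX631 overlapped. The number of members with a positive interaction was 1 without replicate 3 of the vehicle group and 13 without replicate 1 of the R1881 group.

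RPL22L1, the paralog of RPL22, was the member with the largest response to androgen. Its gene lies at chr3:170864875-170870483 on the minus strand (GENCODE 29, GRCh38). At 24 h it was at 230, 233 and 231 CPM in vehicle, 219, 230 and 225 CPM with Senexin B, 335, 372 and 344 CPM with R1881, and 347, 358 and 348 CPM with both. At 72 h it was at 235, 231, 238 and 236 CPM in vehicle, 226, 235, 226 and 223 CPM with SNX631, 361, 328, 345 and 343 CPM with R1881, and 337, 355, 343 and 356 CPM with both. Every library with R1881 lay above every library without it. The log2 fold changes were 0.60 ± 0.03 (FDR = 5.83e-16) and 0.55 ± 0.03 (FDR = 6.94e-20) with R1881 alone, and 0.64 ± 0.04 and 0.61 ± 0.03 under Senexin B and SNX631.

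The inhibitor effects on RPL22L1 ranged from -0.05 ± 0.03 to 0.02 ± 0.03 and passed in no contrast, and its interactions were 0.04 ± 0.05 (FDR = 0.74) and 0.06 ± 0.04 (FDR = 0.317). Its call past the fold limit at 24 h rests close to that limit and was lost without replicate 2 of the R1881 group, with library totals, with the 5 CPM filter and with length and GC offsets, while its rise stayed past the FDR in each. RPL22, an RNA-binding large subunit protein, was at 228, 251 and 234 CPM in vehicle and at 236, 237 and 234 CPM with R1881 at 24 h, which overlap (-0.01 ± 0.04). At 72 h its R1881 effect was -0.08 ± 0.03 (FDR = 0.0144). RPL22 rose with Senexin B without R1881 (0.18 ± 0.04) and with SNX631 in its presence (0.11 ± 0.03).

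**Figure D3:**
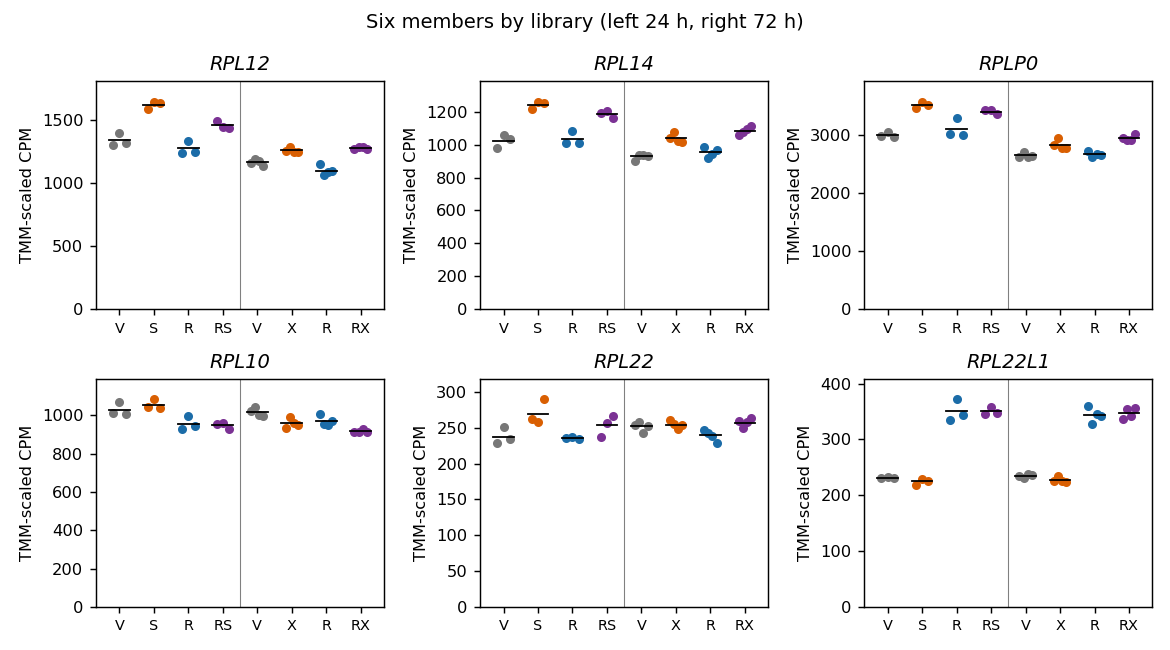
TMM-scaled CPM (vertical axis, from 0) of RPL12, RPL14, RPLP0, RPL10, RPL22 and RPL22L1 by group, 24 h left and 72 h right of the grey line. V is vehicle, S Senexin B, X SNX631, R R1881, and RS and RX the combinations, with a point for each library and a bar at the group mean. RPL22L1 is higher in every library with R1881, from 328 to 372 CPM against 219 to 238 CPM, and RPL12 and RPL14 are higher with inhibitor.

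RPL36AL, the paralog of RPL36A, rose with R1881 at 72 h, from 165, 174, 167 and 176 CPM to 211, 198, 203 and 211 CPM without overlap (0.27 ± 0.03, FDR = 4.18e-09). Under SNX631 its R1881 effect was 0.19 ± 0.03, and at 24 h it was 0.08 ± 0.03 (FDR = 0.0619). RPL36A itself had an R1881 effect of -0.02 ± 0.03 at 72 h, and rose with Senexin B (0.19 ± 0.04) and SNX631 (0.10 ± 0.03) in the absence of R1881, where RPL36AL was at 0.03 ± 0.03 and 0.04 ± 0.03 and did not pass. RPL36AL had no TOP run of 5 bases at its start. A C followed by at least 4 C or T lies within 5 bases of it, inside a longer stretch of C and T that begins farther upstream. RPL36A had a run of 10, as shown above.

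RPS27L, known as a p53 target, was at 91.3, 107 and 97.9 CPM in vehicle and 106, 123 and 115 CPM with R1881 at 24 h, which overlap by 1 library (0.21 ± 0.05, FDR = 0.000277). At 72 h it was 0.06 ± 0.04 (FDR = 0.2). RPS27, its core partner, had an R1881 effect of -0.07 ± 0.04 at 24 h (FDR = 0.108) and fell at 72 h (-0.10 ± 0.03, FDR = 0.00116). RPL7L1, which acts in the making of the large subunit, rose with R1881 at 24 h from 328, 319 and 332 CPM to 354, 361 and 372 CPM (0.15 ± 0.03, FDR = 0.000174), and at 72 h R1881 gave 0.04 ± 0.03 alone and 0.14 ± 0.03 under SNX631. RPL7 gave -0.02 ± 0.04 and -0.02 ± 0.02 with R1881 alone. RPL26L1 passed in none of the 10 contrasts, nor did RPL10L, which was at 0.332 to 1.87 CPM and whose errors of 0.29 to 0.48 allow no statement on its direction.

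RPL10, a late-joining large subunit protein encoded at chrX:154389955-154409168, was the core member that fell with an inhibitor. At 24 h it was at 1012, 1072 and 1006 CPM in vehicle and 930, 997 and 946 CPM with R1881, each of them below the lowest vehicle library (-0.11 ± 0.03, FDR = 0.00613). At 72 h it was at 1025, 1046, 1000 and 996 CPM in vehicle, 933, 993, 958 and 950 CPM with SNX631, 1006, 955, 948 and 969 CPM with R1881, and 914, 913, 928 and 911 CPM with both. Vehicle lay above SNX631 in every library, and both treatments together were the lowest group. RPL10 fell with SNX631 without (-0.09 ± 0.02, FDR = 0.00181) and with R1881 (-0.08 ± 0.02, FDR = 0.00253), and with Senexin B it was at 0.03 ± 0.03 and -0.01 ± 0.03. The fall of RPL10 with SNX631 did not pass without replicate 2 of the vehicle group in the absence of R1881. In the presence of R1881 it did not pass without replicate 1 of the R1881 group. There it was also lost with no filter on low counts and in 1 fit of all 28 libraries. The difference between the inhibitors on RPL10 was not tested.

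**Figure D4:**
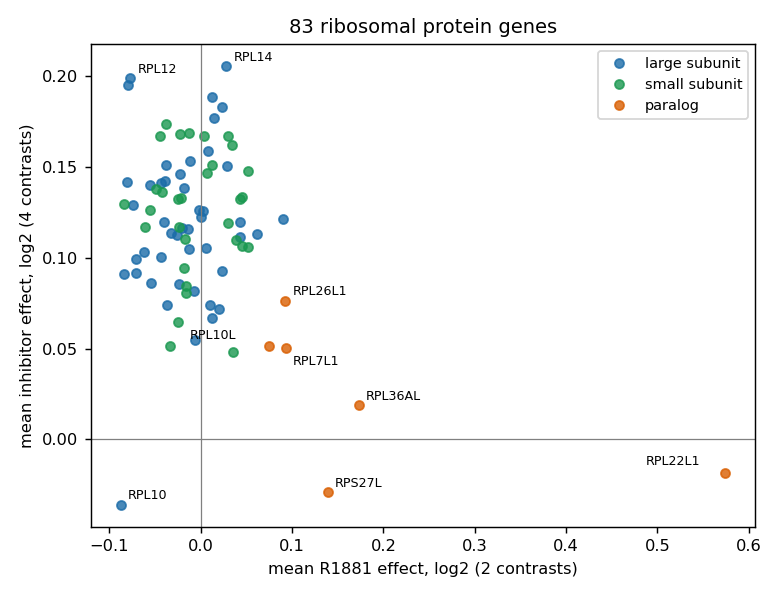
Mean log2 fold change over the 4 inhibitor contrasts (vertical axis) against the mean over the 2 R1881 contrasts without inhibitor (horizontal axis) for the 83 members, coloured by subunit or as paralogs. The axes share control libraries, so the plot is a description, in which RPL14 and RPL12 lie highest (0.21 and 0.20), RPL22L1 farthest right (0.57) and RPL10 lowest (-0.04).

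Other genes of the pathway were read from fixed lists, to be set beside all genes tested. With R1881 alone 26.3% of all genes rose and 22.1% fell at 24 h, and 27.6% rose and 24.6% fell at 72 h. With the inhibitors 13.5% rose with Senexin B, 12.7% with Senexin B and R1881, 14.4% with SNX631 and 17.8% with SNX631 and R1881. Of 31 TOP mRNAs that code mainly for translation factors, such as the EIF3 subunits and elongation factors, 23 rose with Senexin B without R1881 (median 0.15), 17 with R1881 present, 14 with SNX631 and 18 with SNX631 and R1881. With R1881 alone 8 rose and 7 fell at 24 h (25.8% and 22.6% of the list), near the shares of all genes, and 8 rose and 12 fell at 72 h (25.8% and 38.7%). The members of that list that moved most were EIF3I (0.42 ± 0.03 at 24 h) and EIF3J (0.43 ± 0.04 at 24 h, 0.25 ± 0.03 at 72 h), which rose, and VIM, a cytoskeletal gene with a TOP start, which fell (-0.69 ± 0.05 and -0.86 ± 0.05).

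Non-coding hosts of small nucleolar RNAs also begin with the TOP motif. Of 13 such transcripts, 9 rose with Senexin B without R1881 (median 0.21) and 6 with SNX631 without R1881 (median 0.14), while with R1881 alone 5 fell and 4 rose at 24 h and 5 fell at 72 h. Among them EPB41L4A-AS1 fell by 0.34 ± 0.07 and 0.51 ± 0.07 on the log2 scale, ZFAS1 by 0.29 ± 0.06 and 0.25 ± 0.05, and SNHG32 by 0.26 ± 0.05 and 0.29 ± 0.06 at 24 h and 72 h. The use of strand in counting is not given in the sources used here, so reads of antisense hosts and their partners cannot be told apart.

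Ribosome biogenesis genes make and process ribosomal RNA and assemble the subunits. Of 79, 56 rose and 3 fell with R1881 at 24 h (median 0.28), against 26.3% and 22.1% of all genes, and 45 rose and 6 fell at 72 h (median 0.16), against 27.6% and 24.6%, where the members had medians of -0.02 and 0.00. With the inhibitors, 55 rose with Senexin B (median 0.27), 39 with Senexin B and R1881, and 58 in each of the SNX631 contrasts (medians 0.21 and 0.23). GTF3A, the factor for the smallest ribosomal RNA gene, rose with R1881 (0.74 ± 0.04 and 0.50 ± 0.03) and NVL, an assembly ATPase, did too (0.56 ± 0.04 and 0.82 ± 0.04). DDX18, an assembly helicase, fell with R1881 (-0.47 ± 0.04 and -0.87 ± 0.04) and rose with Senexin B (0.57 ± 0.04) and SNX631 (0.55 ± 0.03).

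Chaperones and importers of ribosomal proteins had 14 of 25 tested genes (56%) higher with R1881 at 24 h and 13 (52%) at 72 h (3 lower), against 26.3% and 27.6% of all genes. With each inhibitor alone 11 (44%) were higher, against 13.5% of all genes with Senexin B and 14.4% with SNX631. RPF2, which helps deliver RPL5 and RPL11 to the pre-ribosome, rose with R1881 (0.62 ± 0.04 and 0.41 ± 0.04), Senexin B (0.40 ± 0.04) and SNX631 (0.40 ± 0.04). BCCIP (0.61 ± 0.04 and 0.57 ± 0.04) and HGH1 (0.50 ± 0.05 and 0.45 ± 0.05) rose with R1881. In the list of 10 genes around RPL5, RPL11 and p53, 3 rose (30%) and 2 fell (20%) with R1881 at 24 h, and 3 rose and 3 fell at 72 h. These lie near the shares of all genes, 26.3% and 22.1% at 24 h and 27.6% and 24.6% at 72 h. With Senexin B 3 rose and 1 fell (10%), against 13.5% and 11.7%, and with SNX631 5 rose (50%) and 1 fell, against 14.4% and 12.5%. Of the 10 genes, RRS1 rose with R1881 (0.39 ± 0.06 and 0.40 ± 0.05). The p53 target CDKN1A fell with R1881 (-0.92 ± 0.05 and -0.53 ± 0.04), Senexin B (-0.27 ± 0.05) and SNX631 (-0.28 ± 0.04).

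Genes that control TOP mRNAs through mTOR and LARP1 went in both directions. Of 20, 10 rose and 7 fell with R1881 at 24 h and 9 rose and 5 fell at 72 h, and 4 rose and 1 fell with Senexin B and 2 rose and 1 fell with SNX631 in the absence of androgen. The inhibitor counts, at 20% and 10% of the list higher, lie near the 13.5% and 14.4% of all genes, and those lower (5% of the list with each) are set against 11.7% and 12.5%. MTOR itself rose with R1881 (0.55 ± 0.04 and 0.71 ± 0.04), as did PDCD4, an inhibitor of translation initiation (0.60 ± 0.04 and 0.60 ± 0.03), and EIF4EBP1, a cap-binding inhibitor that mTOR inactivates (0.80 ± 0.07 and 0.40 ± 0.04). EIF4EBP1 rose with Senexin B as well (0.41 ± 0.07), while with SNX631 it was at 0.14 ± 0.04 (FDR = 0.0137). mRNA levels do not measure the activity of the kinase.

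Mitochondrial ribosomal protein genes, which serve a separate ribosome, are set beside the cytosolic ones. With R1881 alone, 30 of 81 tested rose and 4 fell at 24 h (median 0.11), against 26.3% and 22.1% of all genes. At 72 h 32 rose and 6 fell (median 0.11), against 27.6% and 24.6%. Of the 83 cytosolic members, 3 and 9 rose. At 24 h and 72 h, R1881 alone raised MRPS18A by 0.93 ± 0.07 and 1.12 ± 0.05, MRPL17 by 0.61 ± 0.04 and 0.54 ± 0.04, and MRPL32 by 0.54 ± 0.05 and 0.36 ± 0.05. With Senexin B without R1881, 21 of 81 rose and 5 fell (median 0.06), beside 73 of 83 cytosolic members that rose (median 0.18). With Senexin B and R1881, 21 rose and 3 fell (median 0.08), beside 37 of 83 (median 0.11). With SNX631 without R1881, 17 rose and 3 fell (median 0.07), beside 39 of 83 (median 0.08). With SNX631 and R1881, 36 rose and 2 fell (median 0.13), beside 67 of 83 (median 0.12). Of all genes, 13.5%, 12.7%, 14.4% and 17.8% rose in these inhibitor contrasts, and 11.7%, 9.99%, 12.5% and 15.4% fell. The difference between the 2 families was not tested.

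**Figure D5:**
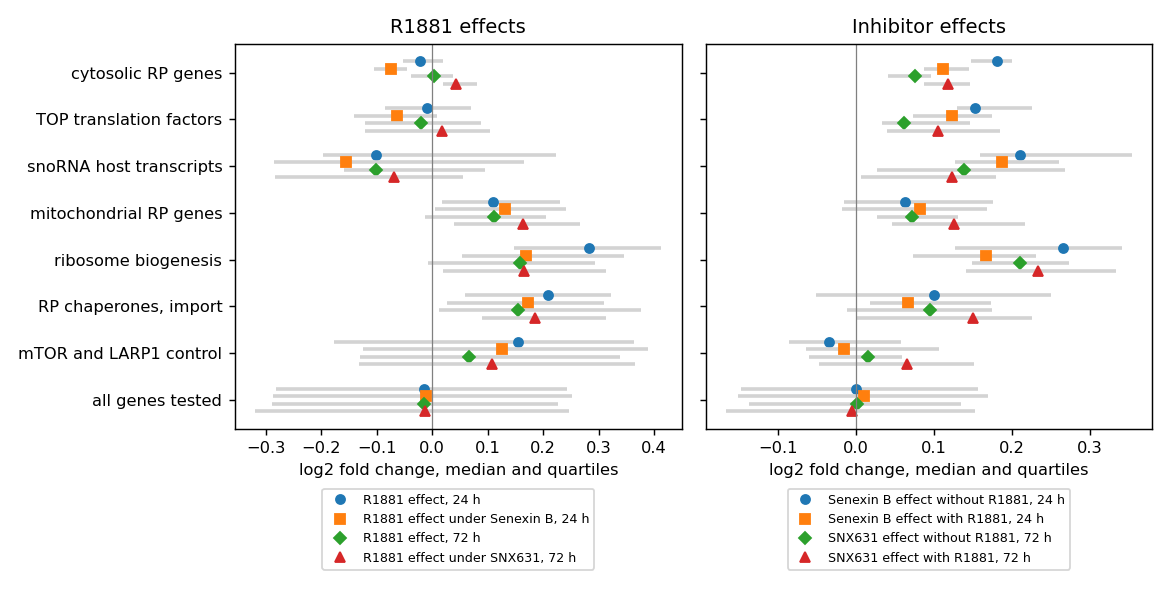
Median (symbols) and quartiles (grey bars) of the log2 fold change for the members, 6 gene lists and all genes tested, in the 4 R1881 effects (left) and the 4 inhibitor effects (right). Cytosolic ribosomal protein genes lie near 0 on the left (medians -0.07 to 0.04 under TMM scaling, and lower with library totals only) and at 0.08 to 0.18 on the right, while the medians of ribosome biogenesis genes lie above 0 on both sides.

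Many ribosomal protein genes have processed pseudogenes that share their reads. The pseudogene rows together held 1.03 to 1.36 counts for every 100 counts on members, RPS2 had the most (18.5 per 100), and 74 of the 83 members had a fractional count in some library, where reads were divided between places. Of the 85 pseudogene rows tested at 24 h, 4 rose (4.71%) and 1 fell (1.18%) with Senexin B without R1881 (median 0.15), against 13.5% and 11.7% of all genes. None rose and 2 fell (2.35%) with R1881, against 26.3% and 22.1%. RPL12P28 (-1.68 ± 0.33 and -2.37 ± 0.31) and RPL13P5 (-0.91 ± 0.19 and -0.62 ± 0.17) fell with R1881 at both times. The members lie on 21 chromosomes, with 12 on chromosome 19 and 8 on chromosome 3.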

How the data were processed

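RNA-seq of LNCaP cells in 8 groups and 28 libraries was analysed. The deposited table holds expected counts per gene, made by the authors per the labels with FastQC, cutadapt 2.8, STAR 2.7.2b and featureCounts of Subread 2.0.3. The annotation release and the strand setting are not given in the sources used here. Of values above 0, 16.9% were not whole numbers, and all were rounded. Of 61817 rows, 2 that are no human genes (0 counts) were left out, and rows of mitochondrial genes hold no counts.

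Each experiment was fitted with edgeR 4.0.16 (R 4.3.3; TMM, filterByExpr with 10 and 15 counts, quasi-likelihood test, Benjamini-Hochberg FDR over all genes tested), with 10 contrasts in all. A member was called at FDR under 0.01, and also with a fold over 1.5. DESeq2 1.42.0, offsets for transcript length and GC content (available for 97.3% of genes tested at 24 h) and other scalings, filters and a replicate block were alternatives. The script was tested on simulated data. The biological coefficient of variation was 2.72% at 24 h and 2.38% at 72 h.

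The members and the 8 lists were chosen with earlier results of these data known. Members named are those past the fold limit, the extremes of the mean R1881 and inhibitor effects, paralog pairs, 7 of known function and the extremes of level. Other members were named after their values were seen. Levels were not compared between genes per length, since the gene models counted are not stated. Starts came from RefSeq (GRCh38.p14) and positions of genes from GENCODE 29 (GRCh38).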

Additional observations from a re-analysis of the deposited data

Results flagged for a closer look

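In 120 groups of 4 libraries, the gap of the highest or lowest library exceeded Dixon's 95% limit in 8, and chance flags about 1 in 20 groups. At 72 h, RPS23 was lowest in vehicle replicate 1 (885 CPM), RPL13A highest in SNX631 replicate 2 (3268 CPM), RPL30 and RPL7 highest in R1881 replicate 1 (671 and 2077 CPM) and RPLP2 lowest in R1881 replicate 2 (534 CPM). With R1881 and SNX631 together, RPL10 was highest in replicate 3 (928 CPM), RPS12 in replicate 4 (930 CPM), and the percent of counts on members was highest in replicate 4 (8.38%).

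A positive interaction of R1881 with SNX631 was found in 3 of 83 members (3.61%), near the 2.99% of all genes. These were RPL26 (interaction 0.14 ± 0.04, FDR = 0.00659), RPL28 (0.13 ± 0.03, FDR = 0.00249) and RPS18 (0.14 ± 0.04, FDR = 0.00821), by edgeR's quasi-likelihood test of the interaction. The count was 1 with the replicate block and 0 with all 28 libraries in one fit. It was 6 with DESeq2 size factors and with TMM without members and TOP genes, and 7 in DESeq2. It was 9 with length and GC offsets, 10 with these offsets and the block, 10 with no filter, and 13 at FDR under 0.05. Among all genes, 481 were higher in the main fit, 439 to 617 in the other settings named and 893 at FDR under 0.05.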

How the results depend on the processing

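Of 480 counts and medians under other settings, 77 moved by more than 1.5 times or more than the spread between replicates. The cause was not tested. With library totals only, higher and lower members were 1 and 42 for R1881 at 24 h (0 past the fold limit, median -0.10), 1 and 72 under Senexin B (0, -0.15), 2 and 58 at 72 h (median -0.10) and 1 and 37 under SNX631 (0, -0.064), Senexin B gave a median of 0.14 alone and 17 higher with R1881, and SNX631 23 higher. RPL4 (-0.057), RPL11 (-0.026), RPSA (-0.025) and RPLP0 (-0.050) reversed there with R1881 under SNX631. The medians of all genes moved there too, to -0.093, -0.085, -0.12 and -0.12 for these R1881 contrasts in the same order. With at least 5 CPM, R1881 gave 10 lower and 0 past the fold limit at 24 h, 50 lower (median -0.11) under Senexin B, 4 higher and 21 lower at 72 h, and 14 higher, 7 lower, 0 past the fold limit and a median of 0.0051 under SNX631. With no filter, R1881 gave 4 lower at 24 h, 32 under Senexin B, 4 at 72 h and 0 under SNX631, SNX631 with R1881 gave 0 lower, and the 72 h interaction 10 higher.

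With length and GC offsets, R1881 gave 8 lower and 0 past the fold limit at 24 h, 1 higher and 0 past it under Senexin B, 14 higher at 72 h, and 2 lower and 0 past it under SNX631, and the 72 h interaction 9 higher. In 1 fit of all 28 libraries, R1881 gave 5 higher at 24 h, 5 lower at 72 h and 0 lower under SNX631, SNX631 with R1881 gave 0 lower and the 72 h interaction 0 higher. With only the groups compared, R1881 gave 1 lower at 24 h and 35 under Senexin B. At FDR under 0.05, R1881 gave 7 higher and 7 lower at 24 h, 4 and 39 under Senexin B and 3 lower under SNX631, Senexin B with R1881 gave 58 higher and the 72 h interaction 13. DESeq2 gave 0 lower for R1881 under SNX631 and 7 higher for the 72 h interaction, its size factors 0 and 6, and TMM without members and TOP genes 6.

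Libraries with the same replicate number correlated weakly, 18 pairs at 24 h by -0.012 to 0.080 and 24 at 72 h by -0.054 to 0.074. At 24 h 8 of 12 libraries correlated best with their own number, so the numbers may mark pairs there. At 72 h 2 of 16 did. With the replicate block, R1881 gave 5 higher and 5 lower at 24 h, 35 lower under Senexin B and 0 lower under SNX631, and the 72 h interaction 1 higher. With the replicate block and length and GC offsets, R1881 gave 8 higher, 11 lower and 0 past the fold limit at 24 h, 36 lower and 0 past it under Senexin B, 14 higher at 72 h, and 2 lower and 0 past it under SNX631, Senexin B with R1881 gave 59 higher, the 24 h interaction 1 lower and the 72 h interaction 10 higher.

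Leaving out 1 library in turn moved 42 of 560 values. R1881 gave 3 to 6 higher, 0 to 9 lower and 0 to 1 past the fold limit at 24 h, 8 to 37 lower under Senexin B, 6 to 15 lower at 72 h and 0 to 1 lower under SNX631. Senexin B with R1881 gave 14 to 58 higher, SNX631 25 to 45 higher and 0 to 1 lower without R1881, and 0 to 1 lower with it. The interaction at 24 h gave 0 to 2 lower and medians of -0.11 to -0.037, and that at 72 h 1 to 13 higher. RPL10L had at most 52 counts in a library, which limits the precision of its values.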
